A study of Mus musculus with 14 samples.

Results

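The levels of 9 tumor suppressor genes of nerve sheath tumor progression were followed across control ganglia, slow-growing plexiform neurofibromas (PNs) and fast-growing PNs of the mouse. They were chosen by gene symbol, and all 9 were among the 24062 genes of the count table: Cdkn2a, Cdkn2b, Cdkn2c, Trp53, Suz12, Eed, Ezh2, Rb1 and Atrx. Bulk RNA-seq was performed on 3 control dorsal root ganglia (DRGs) with nerves from Nf1fl/fl mice, and on 5 slow-growing and 6 fast-growing PNs from DhhCre;Nf1fl/fl mice. All 14 mice were of a mixed C57BL/6, I-129 and FVBN background, received no drug, and controls and tumor-bearing mice alike carried both floxed Nf1 alleles. The methods place tissue collection at an age of 9 months, while a figure legend speaks of tumors of 7 months, and the difference was not resolved here. By volumetric MRI at 7 and 9 months, a slow-growing PN was one whose volume changed by less than 5 mm3 in those 2 months, and a fast-growing PN one that gained more than 35 mm3. In this model Cre is driven by the desert hedgehog promoter, so that Nf1 is lost only in the Schwann cell lineage, while each library holds RNA of the whole tissue. The comparisons ask whether these suppressors differ between normal ganglia and benign tumors, and whether they differ with tumor growth rate.

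Cdkn2a, Cdkn2b and Cdkn2c encode inhibitors of the cyclin D-dependent kinases CDK4 and CDK6, which phosphorylate the retinoblastoma protein Rb1 and so release E2F transcription factors at entry into S phase. Cdkn2a also encodes, from a separate first exon, the Arf protein, which restrains Mdm2, the ubiquitin ligase of p53 (Trp53). Eed, Suz12 and the methyltransferase Ezh2 are the core of Polycomb repressive complex 2 (PRC2), which methylates lysine 27 of histone H3, and Atrx deposits histone H3.3 at repeats and telomeres. Loss of CDKN2A and of PRC2 subunits is known from human nerve sheath tumors that progress from PN through atypical neurofibroma to malignancy.

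In the reference (mm10, equal to GRCm38; GENCODE M21) Cdkn2a lies at chr4:89274471-89294653 and Cdkn2b next to it at chr4:89306299-89311039, both on the minus strand. Cdkn2c lies farther along the same chromosome at chr4:109660876-109667189, minus strand. The remaining genes are Trp53 at chr11:69580359-69591873 (plus), Suz12 at chr11:79993106-80034123 (plus), Eed at chr7:89954654-89980983 (minus), Ezh2 at chr6:47530139-47595341 (minus), Rb1 at chr14:73183673-73325822 (minus) and Atrx at chrX:105797615-105929403 (minus). Exons of 4 members share bases with genes on the opposite strand: Suz12 with Gm26563 (178 bases), Eed with E230029C05Rik (261 bases), Ezh2 with Gm26625 (174 bases), and Rb1 with Rcbtb2 (488 bases) and Lpar6 (408 bases). Whether counting used the strand is not stated, so reads from those bases cannot be told apart between partners. Cdkn2a, Cdkn2b, Cdkn2c, Trp53 and Atrx had no such overlap.

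The promoters of the members on which the results turn are printed here (RefSeq start sites, GRCm38.p6, 250 bases before to 50 bases after the start, written 5′ to 3′ along the gene). Cdkn2b was the member with the largest called difference, Cdkn2a shares its locus and has 2 start sites that the gene-level count merges, and Eed was the PRC2 member that passed the test. Capitals mark matches to the motifs searched on both strands.
Cdkn2b, chr4:89310983-89311282, minus strand: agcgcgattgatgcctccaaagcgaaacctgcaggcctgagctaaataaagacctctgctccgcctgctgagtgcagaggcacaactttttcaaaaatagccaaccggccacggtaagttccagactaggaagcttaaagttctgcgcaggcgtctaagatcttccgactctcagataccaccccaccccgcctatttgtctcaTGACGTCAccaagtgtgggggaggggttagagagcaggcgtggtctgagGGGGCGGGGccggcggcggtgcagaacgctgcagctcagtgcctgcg
Cdkn2a, first exon of Arf, chr4:89294570-89294869, minus strand: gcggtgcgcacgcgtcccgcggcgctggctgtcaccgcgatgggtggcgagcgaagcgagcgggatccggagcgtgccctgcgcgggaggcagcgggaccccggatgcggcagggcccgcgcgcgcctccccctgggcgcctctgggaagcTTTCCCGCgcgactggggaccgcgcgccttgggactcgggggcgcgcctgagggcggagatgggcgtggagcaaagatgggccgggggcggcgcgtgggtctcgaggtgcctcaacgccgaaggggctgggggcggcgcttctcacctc
Cdkn2a, first exon of Ink4a, chr4:89282143-89282442, minus strand: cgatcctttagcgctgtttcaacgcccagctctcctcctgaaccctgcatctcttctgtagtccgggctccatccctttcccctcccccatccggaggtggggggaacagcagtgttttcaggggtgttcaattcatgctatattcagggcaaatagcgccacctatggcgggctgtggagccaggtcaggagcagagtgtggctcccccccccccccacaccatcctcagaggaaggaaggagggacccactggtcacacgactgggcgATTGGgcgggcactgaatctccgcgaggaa
Eed, chr7:89980927-89981226, minus strand: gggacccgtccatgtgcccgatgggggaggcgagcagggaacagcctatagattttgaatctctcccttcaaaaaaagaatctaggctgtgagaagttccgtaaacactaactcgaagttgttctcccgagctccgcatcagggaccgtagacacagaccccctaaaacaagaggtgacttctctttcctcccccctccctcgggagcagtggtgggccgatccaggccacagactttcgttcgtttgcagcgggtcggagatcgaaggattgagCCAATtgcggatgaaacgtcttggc

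The Cdkn2b window held a cAMP response element (TGACGTCA, its own reverse complement) at positions -46 to -39 from the start, where the first transcribed base is 1, and a GC box (GGGGCGGGG) at positions 4 to 12. Of all 32851 RefSeq windows of the same length, 1.79% held the first motif and 11.4% the second. The Arf window held the E2F motif TTTCCCGC at -99 to -92, which 1.07% of windows held and which was also found in Suz12, at -219 to -212. Ezh2 held the other E2F motif searched, TTTGGCGC, at 4 to 11 (0.514% of windows). The Ink4a and Eed windows held neither of these; their capitals mark a CCAAT box, searched as CCAAT or ATTGG and held by 37.4% of windows. The AP-1 motif TGAGTCA, held by 5.20% of windows, was in none of the 10 member windows. Windows were matched for 8 of the 9 members; these matches are descriptions of sequence and not evidence of binding.

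Library depth was 9596773 to 17594164 counts on genes. Levels are CPM, counts scaled to a common library total, with library sizes adjusted by the trimmed mean of M values (TMM). Marker genes of the labelled tissue were present in every group, and none of the markers in the 9 cell type lists was at 0 in all libraries of a group. One library stood apart: in fast-growing PN replicate 4 the 10 neuron markers summed to 50.1 CPM, against 1702 to 13540 CPM in the other 13 libraries. Skeletal muscle and fat markers were highest in controls: the 15 muscle markers summed to 13042 to 46500 CPM in controls, 110 to 14883 CPM in slow-growing PNs and 466 to 9254 CPM in fast-growing PNs, and the 13 fat markers to 4405 to 6389, 44.4 to 3409 and 59.4 to 363 CPM in the same order. Nf1 itself was at 131 to 229 CPM in controls, 224 to 293 CPM in slow-growing PNs and 224 to 276 CPM in fast-growing PNs; whole-gene counts of a tissue in which only Schwann lineage cells recombine do not check the deletion.

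Of the 9 members, Cdkn2b was higher and Eed lower in fast-growing PNs than in controls, and no member passed between fast-growing and slow-growing PNs. A gene is said to pass, or to be called, where its adjusted p over all genes tested was under 0.05. In all PNs against controls 1 of 9 members passed, Eed, where 26.3% of the 16283 genes tested passed (12.9% higher and 13.4% lower). In fast-growing PNs 2 of 9 passed, Cdkn2b higher and Eed lower, where 31.4% of 16037 genes passed (14.8% higher and 16.7% lower). In slow-growing PNs 0 of the 8 members tested passed with edgeR, where 11.3% of 15714 genes did; 1 had an unadjusted p under 0.05, and DESeq2 and limma-voom called 0. Between fast-growing and slow-growing PNs 0 of 8 passed with edgeR, where 1.27% of 15465 genes did, and 3 had an unadjusted p under 0.05. There limma-voom called 0 members. DESeq2 called 2 of 9, where it called 1592 of 20531 genes. In both comparisons with edgeR calls, the members' share was below that of all genes. Without fast-growing PN replicate 4, Cdkn2b (2.06) and Eed (-0.60) were still called in fast-growing PNs (edgeR adjusted p of 0.00335 and 0.0233), although the Eed call there was lost in 7 of the 9 fits that left out 1 library. The groups did not overlap for 2 of 9 members, Cdkn2b and Atrx, in fast-growing PNs against controls, where they did not overlap for 32.4% of genes. No member separated in the other comparisons, where 17.7% of genes did in all PNs, 23.4% in slow-growing PNs and 3.01% between growth rates. The 3 comparisons against controls share the same 3 control libraries and are not independent.

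**Figure D1:**
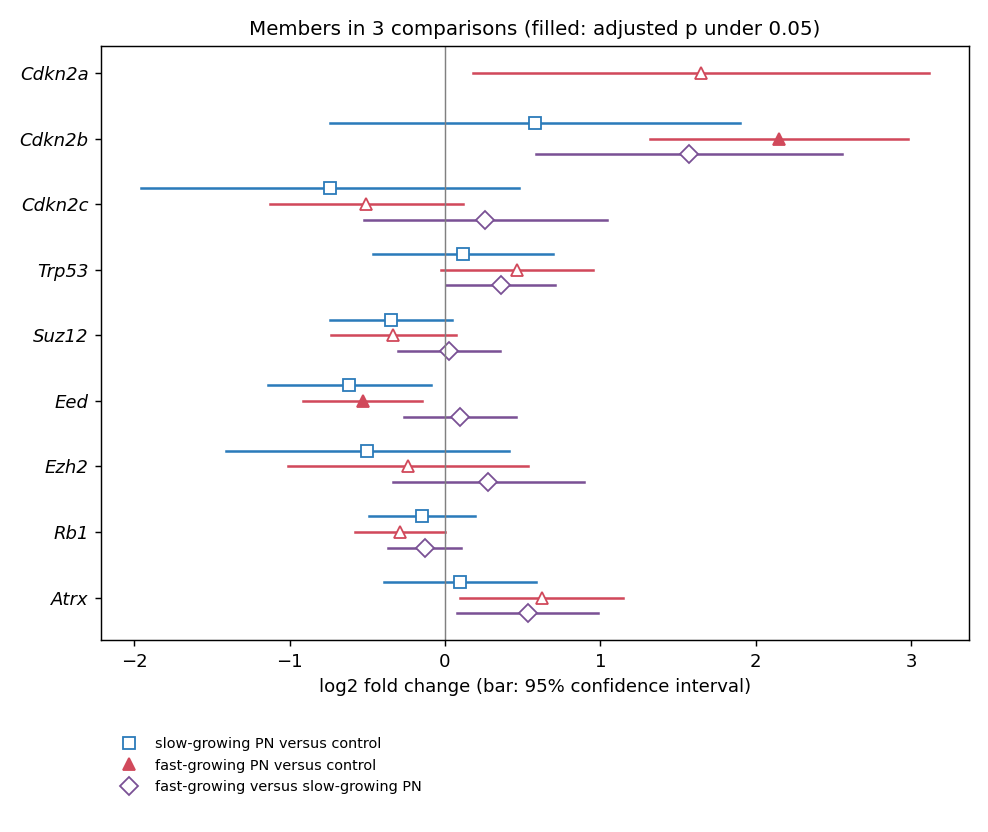
Log2 fold change of each member (symbols) with its 95% confidence interval (bars) for slow-growing PNs against controls, fast-growing PNs against controls, and fast-growing against slow-growing PNs; filled symbols have an edgeR adjusted p under 0.05. Only Cdkn2b (2.15) and Eed (-0.53) in fast-growing PNs against controls are filled, and Cdkn2a has 1 value because the low-count filter removed it elsewhere.

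Cdkn2b, the gene of p15Ink4b, was higher in fast-growing PNs than in controls and was the member with the largest called change. In the 3 controls Cdkn2b was at 5.44, 4.81 and 3.28 CPM. In the 5 slow-growing PNs it was at 4.71, 16.8, 5.28, 2.56 and 5.30 CPM, and in the 6 fast-growing PNs the lowest, median and highest levels were 11.6, 23.3 and 27.1 CPM. All 6 fast-growing PNs thus lay above every control and 4 of 6 above every slow-growing PN, whereas 3 of 5 slow-growing PNs lay within the range of the controls. Slow-growing PN replicate 2 was above every control and within the range of the fast-growing PNs, and replicate 4 was below every control. The group means were 4.51 ± 1.11 CPM (SD, n = 3), 6.92 ± 5.61 CPM (SD, n = 5) and 20.7 ± 7.03 CPM (SD, n = 6).

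By edgeR's quasi-likelihood test, Cdkn2b in fast-growing PNs differed from controls by a log2 fold change of 2.15 (SE 0.37, 95% interval 1.32 to 2.98, Benjamini-Hochberg adjusted p = 0.00215). Leaving out each library in turn kept this call, with adjusted p between 0.00106 and 0.0117. Slow-growing PNs differed from controls by 0.58 (SE 0.58, interval -0.74 to 1.90, edgeR adjusted p = 0.508), a value that became -0.05 without slow-growing PN replicate 2. Between fast-growing and slow-growing PNs the log2 fold change was 1.57 (SE 0.45, interval 0.59 to 2.56), which did not pass (edgeR adjusted p = 0.0833). Without slow-growing PN replicate 2, the library with the highest Cdkn2b of its group, that difference was 2.21 and passed (edgeR adjusted p = 0.00648). In that fit 1194 of 15611 genes passed, against 196 of 15465 with all libraries kept. Over the 11 fits that left out 1 library, the edgeR adjusted p of this difference ran from 0.00648 to 0.205. All 11 PNs together were 1.68 above controls on the log2 scale (SE 0.69, interval 0.21 to 3.15, edgeR adjusted p = 0.0855), a difference that DESeq2 called (1.63, adjusted p = 0.0330).

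**Figure D2:**
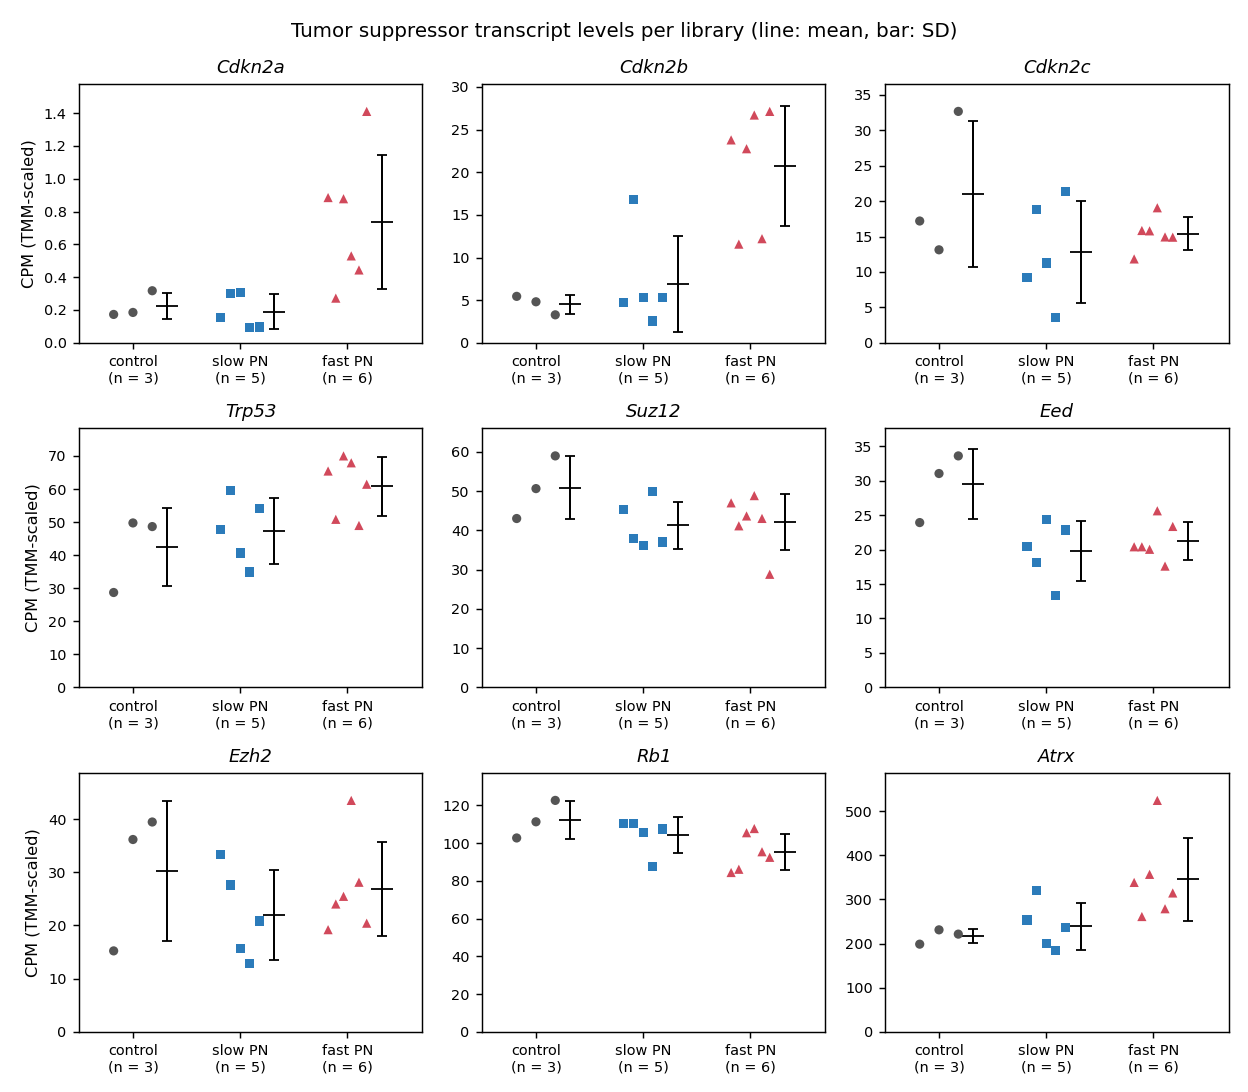
Level of each of the 9 members in each library (CPM, TMM-scaled, linear axes from 0) for controls (circles), slow-growing PNs (squares) and fast-growing PNs (triangles), with the group mean and SD beside the points. Cdkn2b sits at 11.6 to 27.1 CPM in fast-growing PNs and at 3.28 to 5.44 CPM in controls, and Eed reaches 23.9 to 33.6 CPM in controls against 13.3 to 25.6 CPM in PNs.

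The Cdkn2b level moved with fibroblast and macrophage markers across libraries. Fibroblast markers (8 genes) summed to 1990 to 3831 CPM in controls, 1263 to 5588 CPM in slow-growing PNs and 5475 to 10352 CPM in fast-growing PNs, and macrophage markers (9 of 10 in the table) to 166 to 616, 56.1 to 488 and 280 to 816 CPM. Slow-growing PN replicate 2 had the highest fibroblast sum (5588 CPM) and the highest macrophage sum (488 CPM) of its group, and also its highest Cdkn2b. With group means removed, Cdkn2b correlated with the fibroblast score at Pearson r = 0.749, with the macrophage score at r = 0.753 and with the muscle score at r = -0.624 over the 14 libraries, which share depth and tissue makeup within each value. With granulocyte markers it was r = 0.109 and with lymphocyte markers r = -0.072. With muscle and fat scores as covariates, the Cdkn2b log2 fold change in fast-growing PNs was 0.57 (interval -1.94 to 3.08, edgeR adjusted p = 0.969), and no gene of the whole table passed. The same covariates left the difference between fast-growing and slow-growing PNs at 1.88 (SE 0.53, edgeR adjusted p = 0.266). The part of fibroblasts and macrophages in the Cdkn2b result was not tested, and in bulk tissue more cells of a type cannot be told apart from more RNA per cell.

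**Figure D3:**
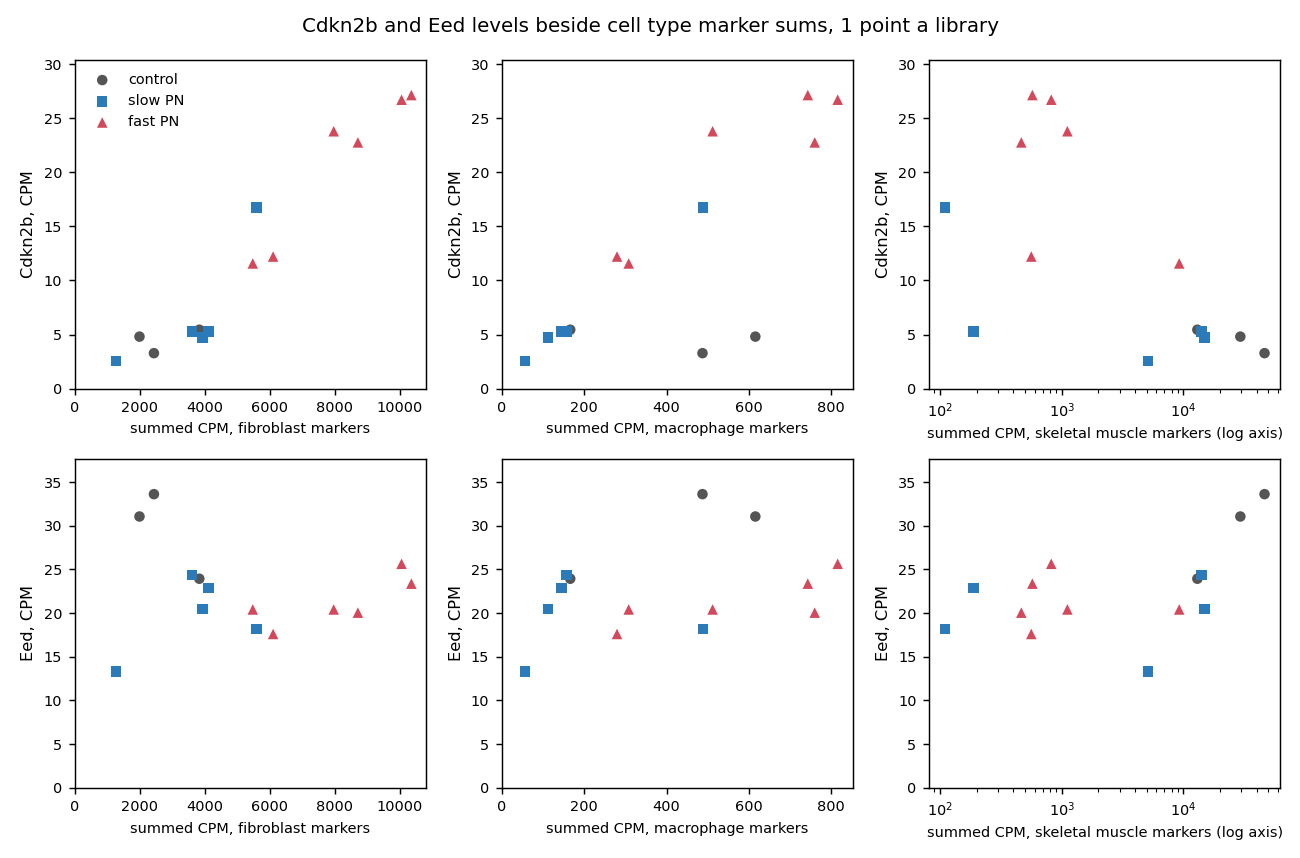
Cdkn2b (top) and Eed (bottom) in CPM against the summed CPM of fibroblast, macrophage and skeletal muscle markers (muscle on a log axis), with 1 point for each of the 14 libraries. The 6 fast-growing PNs hold fibroblast sums of 5475 to 10352 CPM and Cdkn2b of 11.6 to 27.1 CPM, and the 2 controls with the highest Eed, 31.1 and 33.6 CPM, hold the highest muscle sums.

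Cdkn2a was close to the limit of detection. It had 2, 2 and 3 counts in controls, 2, 4, 3, 1 and 1 counts in slow-growing PNs, and 16, 4, 12, 7, 6 and 21 counts in fast-growing PNs, or 0.272 to 1.41 CPM in the last group. All control libraries were at or under 3 counts, the floor used here, and 5 of 6 fast-growing PNs were above every control and every slow-growing PN. Summed over libraries and scaled by depth, Cdkn2a was 3.41 times as frequent in fast-growing PNs as in controls (95% interval 1.57 to 8.81) and 3.93 times as frequent as in slow-growing PNs (2.06 to 8.25), while slow-growing PNs were at 0.868 times the control (0.307 to 2.64). These intervals treat the pooled reads as independent draws and leave out the spread between mice, so they do not test a group difference. Amplified reads are not independent molecules, so the intervals do not fully cover counting error either.

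Cdkn2a passed the low-count filter only in fits that held both the fast-growing PNs and the controls, through the tumors in which it was high. In fast-growing PNs against controls the fitted log2 fold change of Cdkn2a was 1.65 (SE 0.65, interval 0.18 to 3.12) and did not pass (edgeR adjusted p = 0.0845). Against slow-growing PNs it was removed by the filter; an exact two-sided permutation test of log2(CPM + 1) gave p = 0.0130, unadjusted and 1 of 36 such tests, where the smallest p the design allows is 0.00433. DESeq2, which tested it there, gave 1.95 (adjusted p = 0.0400). The counts do not separate Ink4a from Arf transcripts.

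The third INK4 gene, Cdkn2c, encodes p18Ink4c and was not called in any comparison. It was at 17.2, 13.1 and 32.7 CPM in controls, at 9.20, 18.9, 11.3, 3.56 and 21.3 CPM in slow-growing PNs, and at 11.8, 15.4 and 19.1 CPM (lowest, median, highest) in fast-growing PNs. The spread was wide in controls and slow-growing PNs and narrow in fast-growing PNs. Fast-growing PNs differed from controls by -0.51 (SE 0.28, interval -1.13 to 0.11, edgeR adjusted p = 0.198), and this was 0.02 without control replicate 3, the highest.

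Among the 4 other cyclin-dependent kinase inhibitors of the INK4 and CIP/KIP families, only Cdkn1a (p21) passed, and it was lower in fast-growing PNs. There 16.7% of all genes were called lower. Cdkn1a was at 194 to 422 CPM in controls and 104 to 224 CPM in fast-growing PNs, with a log2 fold change of -0.82 (SE 0.27, edgeR adjusted p = 0.0461). That call was lost in 7 of the 9 fits that left out 1 library. No inhibitor of this list passed in slow-growing PNs, in all PNs together or between growth rates.

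Cdk6, a kinase that INK4 proteins inhibit, and the D-type cyclin genes Ccnd1 and Ccnd3 were higher in fast-growing PNs than in controls. Of 8 G1 cyclins and kinases, 3 rose in fast-growing PNs against controls: Ccnd1 (cyclin D1) by a log2 fold change of 3.12 (SE 0.37), Ccnd3 by 1.11 (SE 0.25) and Cdk6 by 1.62 (SE 0.38), with edgeR adjusted p of 0.000266, 0.00834 and 0.00957, where 14.8% of all genes were called higher and 16.7% lower. Ccne1 (cyclin E1) fell by 1.32 on the log2 scale (edgeR adjusted p = 0.0139), and its call was lost without control replicate 3 and its direction turned with muscle and fat covariates. Ccnd1 was at 44.7 to 75.1 CPM in controls, 43.6 to 423 CPM in slow-growing PNs and 340 to 846 CPM in fast-growing PNs. The calls of Ccnd1, Ccnd3 and Cdk6 held with each library left out in turn. In all PNs together Ccne1 was lower (-1.22) and Ccnd1 higher (2.60, a call held in 5 of the 14 fits that left out 1 library and a direction that turned with muscle and fat covariates), and none of the 8 genes passed in slow-growing PNs or between fast-growing and slow-growing PNs.

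Rb1 itself was the member with the smallest relative spread over the 11 PNs. It was at 103, 111 and 123 CPM in controls, at 110, 110, 106, 87.6 and 108 CPM in slow-growing PNs, and at 84.4, 94.0 and 108 CPM (lowest, median, highest) in fast-growing PNs. The lowest 4 of the 6 fast-growing PNs were below every control, and the groups overlapped. The log2 fold change of Rb1 in fast-growing PNs against controls was -0.29 (SE 0.13, interval -0.58 to 0.00, edgeR adjusted p = 0.120) and in slow-growing PNs -0.15 (interval -0.49 to 0.19).

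Of the 12 pocket proteins and E2F factors listed beside Rb1, only E2f1 passed in every comparison with controls. E2f1, an activator of S-phase genes, was at 6.74 to 9.41 CPM in controls. It was at 14.3 to 25.5 CPM in slow-growing PNs and 15.6 to 18.6 CPM in fast-growing PNs. As for 17.7% of all genes tested in all PNs, E2f1 did not overlap between PNs and controls. Its log2 fold change was 1.18 (SE 0.19) in all PNs, 1.23 (SE 0.26) in slow-growing and 1.04 (SE 0.16) in fast-growing PNs (edgeR adjusted p of 0.000583, 0.0201 and 0.00125). The call in slow-growing PNs held in 5 of the 8 fits that left out 1 library, and that in all PNs also held with muscle and fat scores as covariates. The pocket protein Rbl2 rose in all PNs by 0.39 and in fast-growing PNs by 0.34, and E2f6 fell in fast-growing PNs by 0.66 on the log2 scale. With 1 library left out, the calls of Rbl2 held in 11 of 14 and 3 of 9 fits and that of E2f6 in 6 of 9. The Rbl2 call in all PNs was also lost with DESeq2's size factors and with the length and GC trend removed, and the direction of E2f6 turned with muscle and fat covariates. Of all genes, 26.3% were called in all PNs, 11.3% in slow-growing and 31.4% in fast-growing PNs. The shares of this list were not above those. The list median was -0.04 in all PNs, beside 0.10 over all genes tested.

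The 24 E2F target and proliferation genes gave no call in the direction of E2f1. In all PNs 0 were called higher by edgeR and 4 were called lower: Tyms (-0.79), Tk1 (-1.40), Pcna (-0.55) and Mcm3 (-1.38), where 13.4% of all genes were called lower. The count was 2 in slow-growing PNs (Tk1, Tyms) and 3 in fast-growing PNs (Tyms, Tk1, Pcna), where 16.7% of all genes were called lower, with none between growth rates. In all PNs and in fast-growing PNs the share of the 24 genes called lower was thus near or below that of all genes. The list median was -0.67 in all PNs, beside 0.10 over all genes tested. Mki67, a marker of cycling cells, was at 43.3, 130 and 323 CPM in controls, 11.6 to 124 CPM in slow-growing PNs and 25.9 to 179 CPM in fast-growing PNs, and did not pass (log2 fold change -1.44, SE 0.64, edgeR adjusted p = 0.111 in all PNs). The highest sums of blood cell markers were also in controls: granulocyte markers summed to 112 to 1782 CPM in controls and 53.1 to 324 CPM in PNs, and lymphocyte markers to 9.25, 455 and 376 CPM and 10.9 to 288 CPM. The calls of Tyms and Pcna in all PNs were lost without control replicate 3, those of Tk1 without control replicate 2 or 3, and that of Mcm3 in 9 of the 14 fits. In slow-growing PNs Tk1 held in 4 and Tyms in 2 of 8 such fits, and in fast-growing PNs Tyms held in 7, Tk1 in 5 and Pcna in 3 of 9. The 3 lower calls in fast-growing PNs were 0 by edgeR without control replicate 2 or 3 and 6 without control replicate 1, and the 4 in all PNs were 9, 2 and 0 without control replicates 1, 2 and 3. The part of blood cells was not tested.

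Trp53 was not called in any comparison. It was at 28.7, 49.7 and 48.6 CPM in controls, at 47.7, 59.4, 40.6, 34.9 and 54.2 CPM in slow-growing PNs, and at 49.0, 63.5 and 70.0 CPM (lowest, median, highest) in fast-growing PNs. Of the 6 fast-growing PNs, 5 were above every control and 4 above every slow-growing PN. The log2 fold change was 0.46 against controls (SE 0.22, interval -0.02 to 0.95, edgeR adjusted p = 0.136) and 0.36 against slow-growing PNs (SE 0.16, interval 0.01 to 0.71, edgeR adjusted p = 0.236). With group means removed, Trp53 correlated with the macrophage score at r = 0.888 over the 14 libraries, and the part of macrophages in the Trp53 levels was not tested.

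Genes around p53 were called in both directions. Of 10 p53 regulators tested, Trp53bp1 (0.67) and Atr (0.35), both of the DNA damage response, were higher in all PNs. The checkpoint kinase Chek2 (-0.72) was lower. In all PNs 26.3% of all genes were called, so the share of regulators called was near that of all genes. In fast-growing PNs only Trp53bp1 passed, at 0.55, where 31.4% of all genes passed. That call held in 6 of the 9 fits that left out 1 library and was lost without control replicate 2 or 3. With 1 library left out, the call of Atr in all PNs held in 2 of 14 fits, that of Trp53bp1 in 7 and that of Chek2 in 12, and none of the 3 without control replicate 2 or 3. Mdm2, at 73.6 to 90.9 CPM in controls and 78.1 to 111 CPM in PNs, was not called (0.14, interval -0.11 to 0.39). Of 21 p53 target genes tested, 5 rose and 3 fell in fast-growing PNs, where 14.8% of all genes were called higher and 16.7% lower, so that the share that fell was not above that of all genes. These counts were 3 and 2 without control replicate 2 and 5 and 1 without control replicate 3. Zmat3 (1.18), Plk2 (1.53) and Gadd45a (0.83) were higher, and the death receptor Fas was lower (-1.78), at 3.11 to 6.20 CPM against 12.9 to 15.01 CPM in controls. The calls of Zmat3, Plk2 and Fas held with each library left out, and the direction of Plk2 turned with muscle and fat covariates. In all PNs Zmat3 (1.24), Polk (0.74) and Rrm2b (0.58) rose and Btg2 (-1.48) fell, where 12.9% of all genes were called higher and 13.4% lower. Without control replicate 2 only Polk was still called, and without control replicate 3 none of the 4. In slow-growing PNs Rrm2b rose (0.67, held in 3 of the 8 fits that left out 1 library).

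Plk2 was the only gene of the 15 pathway lists that passed between fast-growing and slow-growing PNs, where 1.27% of all genes tested passed. It was at 17.4 to 28.7 CPM in controls, 20.4 to 36.6 CPM in slow-growing PNs and 40.7 to 94.6 CPM in fast-growing PNs. As for 3.01% of all genes tested there, Plk2 did not overlap between growth rates. The difference was 1.18 on the log2 scale (SE 0.25, edgeR adjusted p = 0.0484), and it passed in 3 of the 11 fits that left out 1 library and not with DESeq2's size factors, with the length and GC trend removed or with muscle and fat covariates.

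Eed, the PRC2 subunit that binds trimethylated lysine 27, was the 1 member called in all PNs against controls, and it was lower. It was at 23.9, 31.1 and 33.6 CPM in controls, at 20.4, 18.2, 24.4, 13.3 and 22.9 CPM in slow-growing PNs, and at 17.6, 20.4 and 25.6 CPM (lowest, median, highest) in fast-growing PNs. Of the 11 PNs, 9 were below every control, and the 2 others lay just above the lowest control. Means were 29.5 ± 5.02 CPM (SD, n = 3) in controls and 20.6 ± 3.47 CPM (SD, n = 11) in PNs. The log2 fold change was -0.52 in all PNs (SE 0.17, interval -0.88 to -0.16, edgeR adjusted p = 0.0330), -0.53 in fast-growing PNs (SE 0.17, edgeR adjusted p = 0.0400) and -0.61 in slow-growing PNs (SE 0.23, edgeR adjusted p = 0.120).

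The Eed difference in fast-growing PNs ran from -0.67 to -0.37 with 1 library left out, with edgeR adjusted p up to 0.184. Fast-growing and slow-growing PNs overlapped in Eed (0.10, SE 0.16, interval -0.26 to 0.46). The call in all PNs was lost without control replicate 2 (-0.48, edgeR adjusted p = 0.133) and without control replicate 3 (-0.42, edgeR adjusted p = 0.195), the libraries that had the highest Eed and the highest muscle marker sums. It was also lost with a spline of length and GC removed (-0.37, edgeR adjusted p = 0.123) and with muscle and fat covariates (-0.34, edgeR adjusted p = 0.559). With group means removed, Eed correlated with the endothelial score at r = 0.752 and with the muscle score at r = 0.081 over the 14 libraries. The 8 endothelial markers summed to 401 to 541 CPM in controls and 110 to 511 CPM in PNs. The part of endothelial and muscle tissue in the Eed result was not tested.

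The partners of Eed in PRC2 did not pass the edgeR test. Suz12 was at 43.0, 50.7 and 59.0 CPM in controls, 45.3, 37.9, 36.2, 50.01 and 37.0 CPM in slow-growing PNs, and 28.8, 43.4 and 48.9 CPM (lowest, median, highest) in fast-growing PNs. Of the 11 PNs, 5 were below every control, and the log2 fold change in all PNs was -0.29 (SE 0.15, interval -0.61 to 0.04, edgeR adjusted p = 0.181). Ezh2 varied most of the PRC2 genes, at 15.2, 36.1 and 39.4 CPM in controls, 33.3, 27.6, 15.6, 12.8 and 20.8 CPM in slow-growing PNs, and 19.2, 24.7 and 43.5 CPM in fast-growing PNs. Controls alone spanned most of the range of the PNs, and the Ezh2 difference was -0.30 (SE 0.32, interval -0.99 to 0.39, edgeR adjusted p = 0.527). The highest Ezh2 belonged to fast-growing PN replicate 4, the library with the lowest neuron marker sum.

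Among other Polycomb genes, most calls were of PRC1 core subunits. Of 8 other PRC2 subunits only Ezh1, the methyltransferase of resting cells, was called: it rose in all PNs by 0.40 (SE 0.13, edgeR adjusted p = 0.0392), from 66.4 to 83.3 CPM in controls to 75.9 to 114 CPM in PNs, a call that held in 6 of the 14 fits that left out 1 library and was lost with DESeq2's size factors. Of 7 demethylases and readers of methylated lysine 27, Cbx7 (0.55) and Cbx6 (0.58) rose in all PNs, each lost with those size factors as well and in 7 or more of the 14 fits. In all PNs 26.3% of all genes were called. The share called was thus below that of all genes for the PRC2 subunits and near it for the demethylases and readers. PRC1, the complex that ubiquitinates histone H2A, had 5 of 11 core subunits higher and 1 lower in all PNs, where 12.9% of all genes were called higher and 13.4% lower, with a list median of 0.44 beside 0.10 over all genes. The 5 higher calls were 1 without control replicate 2, 2 without control replicate 3, 2 with the length and GC trend removed and 0 by edgeR with muscle and fat covariates, which also ended the lower call. Pcgf2 (0.81), Pcgf3 (0.53) and Bmi1 (0.68) rose and Pcgf5 (-1.08) fell. In fast-growing PNs 6 rose, Bmi1, Pcgf2 and Pcgf1 with the lowest p, and Pcgf5 fell. The 6 were 3 without control replicate 2 or 3, while Bmi1, Pcgf2 and Pcgf5 held with each library left out. In slow-growing PNs Pcgf2 (0.78) rose and Pcgf5 (-1.12) fell, calls that held in 4 and 2 of the 8 fits that left out 1 library.

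Developmental regulators that PRC2 silences in many tissues gave no higher call. Of 18 listed, 8 had enough counts to be tested in all PNs and 1 was called, the endoderm and mesenchyme factor Gata6. It was lower (-2.70, SE 0.91, edgeR adjusted p = 0.0411), in 5 of the 14 fits that left out 1 library. Of all genes, 13.4% were called lower in all PNs and 16.7% in fast-growing PNs, so the share of this list was near that of all genes. Gata6 was at 5.18 to 7.40 CPM in controls and 0.0672 to 4.34 CPM in PNs. In fast-growing PNs it fell by 3.58 on the log2 scale, a call that held in 6 of 9 such fits and a direction that turned with muscle and fat covariates, and by edgeR no gene of the list passed in slow-growing PNs or between growth rates.

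Atrx was highest in fast-growing PNs, and the difference missed the threshold. It was at 199, 231 and 221 CPM in controls, at 253, 321, 201, 184 and 236 CPM in slow-growing PNs, and at 261, 327 and 525 CPM (lowest, median, highest) in fast-growing PNs. All 6 fast-growing PNs were above every control, and 3 of 6 were above every slow-growing PN. Fast-growing PNs differed in Atrx by 0.62 on the log2 scale from controls (SE 0.23, interval 0.10 to 1.15, edgeR adjusted p = 0.0700) and by 0.53 from slow-growing PNs (SE 0.21, interval 0.08 to 0.98, edgeR adjusted p = 0.174). Without fast-growing PN replicate 4, the highest, the first was 0.46 (edgeR adjusted p = 0.0530). With 1 library left out, the edgeR adjusted p of the difference from controls ran from 0.0430, which passes, to 0.163. DESeq2 called that difference at an adjusted p of 0.0422. With group means removed, Atrx correlated with the neuron score at r = -0.876, with the fibroblast score at r = 0.721 and with the macrophage score at r = 0.717 over the 14 libraries. Fast-growing PN replicate 4 had both the highest Atrx and the lowest neuron sum, and the part of these cell types in the Atrx levels was not tested.

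Among Atrx partners and H3.3 genes, Cbx5, which encodes the heterochromatin protein HP1 alpha, rose in every comparison with controls. Cbx5 was at 166 to 237 CPM in controls, 295 to 354 CPM in slow-growing PNs and 309 to 400.4 CPM in fast-growing PNs. As for 17.7% of all genes tested in all PNs, Cbx5 did not overlap between PNs and controls. It rose by 0.80 on the log2 scale in all PNs (SE 0.14, edgeR adjusted p = 0.000877), a call that held with each library left out, and its call in slow-growing PNs held in 2 of 8 such fits. Of the genes encoding histone H3.3, H3f3a fell by 0.76 on the log2 scale in all PNs, and H3f3b rose by 0.56 in fast-growing PNs. The H3f3a call in all PNs was lost without control replicate 2 or 3, and the H3f3b call held in 6 of the 9 fits that left out 1 library and turned direction with muscle and fat covariates.

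Per kilobase of the longest annotated transcript, the order of the members changed with growth rate mainly through Cdkn2b. In controls Rb1 (24.1 CPM per kb) and Atrx (21.1) were highest, followed by Eed (14.3), Trp53 (12.9), Suz12 (11.6), Ezh2 (10.9), Cdkn2c (8.50), Cdkn2b (3.24) and Cdkn2a (0.251). Eed, Trp53, Suz12, Ezh2 and Cdkn2c overlapped with their neighbors in this order, as did Rb1 with Atrx, while Atrx stood above Eed, Cdkn2c above Cdkn2b, and Cdkn2b above Cdkn2a in every control. In fast-growing PNs Cdkn2b was the fourth, at 14.9 CPM per kb, behind Atrx (33.7), Rb1 (20.5) and Trp53 (18.6), and its range overlapped those of its neighbors Trp53 and Eed (10.3). In slow-growing PNs it stayed the eighth, at 4.98 CPM per kb, below Cdkn2c (5.20) with overlapping ranges. A gene-level count over the longest transcript does not account for the mix of isoforms.

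Members also varied together within groups. With group means removed, Ezh2 and Rb1 correlated at r = 0.778, Cdkn2b and Atrx at r = 0.737, and Trp53 and Atrx at r = 0.724, the highest of the 36 pairs, over the same 14 libraries. Also with group means removed, the genes most like Cdkn2b among 10575 whose mean log2 CPM reached 3 were Tmem159 (r = 0.955), Tgfbi (0.952) and Spred1 (0.947). Those most like Eed were Nt5dc1 (0.904), Ly6c1 (0.882) and Tbx15 (0.876). These values describe shared variation across libraries that also share depth and tissue makeup.

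Of 4 neighbors of the Cdkn2a and Cdkn2b locus tested, only Dmrta1 was called by edgeR. Of all genes, 26.3% were called in all PNs and 31.4% in fast-growing PNs. Dmrta1 rose in both comparisons. It was at 0.259 to 0.924 CPM in controls and 1.05 to 3.47 CPM in PNs, a log2 fold change of 1.59 in all PNs (SE 0.42, edgeR adjusted p = 0.0121, lost without control replicate 3), and in fast-growing PNs the log2 fold change was 1.46 (SE 0.42, edgeR adjusted p = 0.0243, lost without control replicate 1 or 3). It is a low gene, and 3 counts correspond to 0.242 to 0.313 CPM in the control libraries. Mtap, the neighbor often deleted together with CDKN2A in human tumors, was at 20.1 to 20.7 CPM in controls, 19.6 to 26.1 CPM in slow-growing PNs and 20.9 to 31.6 CPM in fast-growing PNs and was not called (0.29 in fast-growing PNs, interval -0.06 to 0.65). Of 11 genes tested around Nf1 and Suz12, Utp6 (0.63) and Nf1 (0.54) rose and Tefm (-0.64) fell in all PNs. The share called was thus near the 26.3% of all genes. Utp6 passed in slow-growing (0.55) and fast-growing PNs (0.62) as well. In slow-growing PNs it passed in 2 of the 8 fits that left out 1 library and not with the length and GC trend removed. Tefm passed in fast-growing PNs (-0.72), in 5 of 9 such fits and not with that trend removed. In all PNs the call of Nf1 was lost without control replicate 2 or 3, and that of Tefm in 3 of 14 such fits. Both calls were also lost with the length and GC trend removed.

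**Figure D4:**
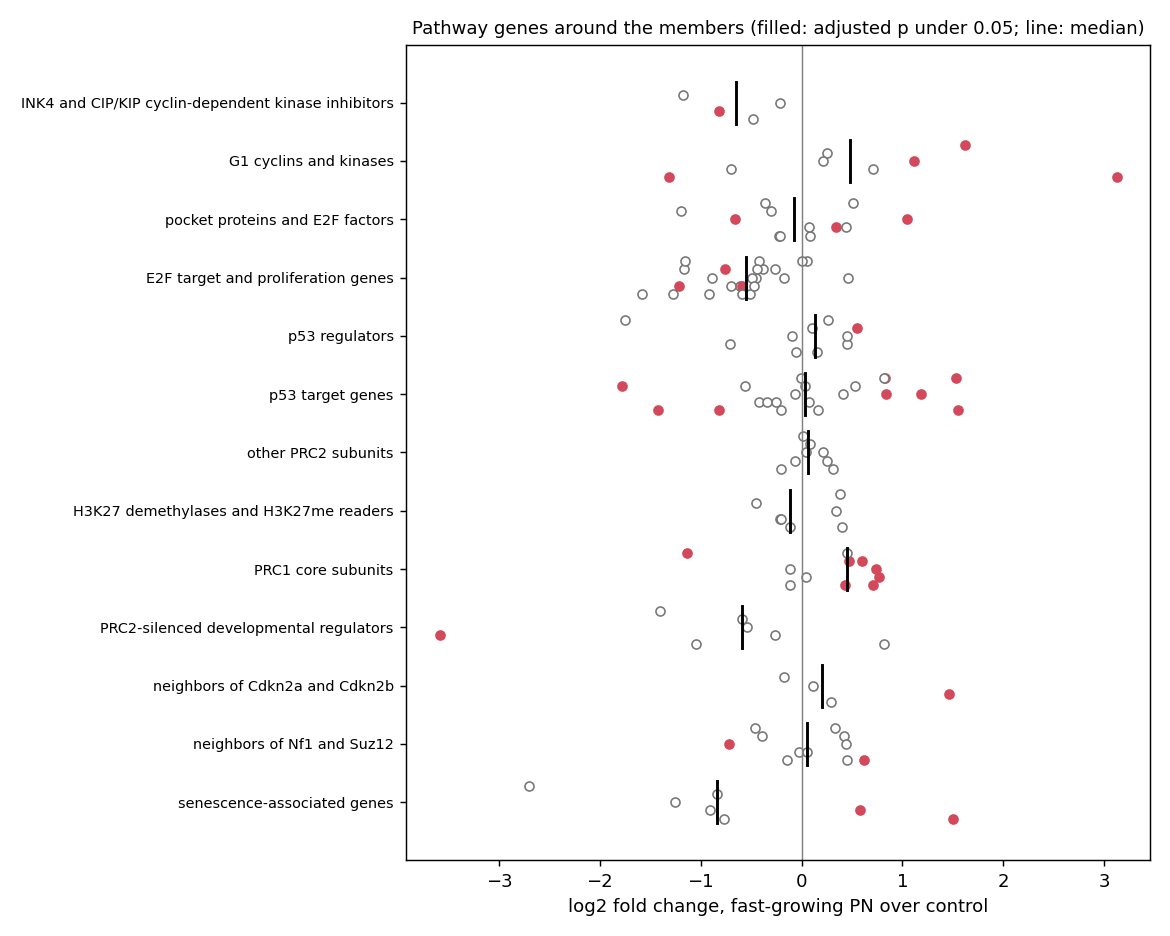
Log2 fold change of each tested gene of 13 of the 15 pathway lists in fast-growing PNs over controls (points; filled where the edgeR adjusted p is under 0.05) with each list's median (black line). PRC1 core subunits hold 6 higher and 1 lower call, p53 target genes 5 and 3, and E2F target and proliferation genes 0 and 3; without control replicate 3 these counts are 3 and 1, 5 and 1, and 0 and 0.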

How the data were processed

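Bulk RNA-seq of 14 mice was analysed. Total RNA was amplified by the authors (Ovation RNA-Seq System v2), who aligned reads to mm10 with TopHat2 2.0.9 and counted them with featureCounts 1.5.2, per the submitters' processing notes, which also name CASAVA 1.4, FastQC 0.11.0 and edgeR 3.16.5; the deposited values used here are raw counts for 24062 genes. A deposited table of normalized log2 values was not used. Depth was 9596773 to 17594164 counts per library, and 3 counts were taken as the floor.

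Genes were kept by filterByExpr, scaled by TMM and compared with edgeR 4.0.16 (quasi-likelihood test) in R 4.3.3, fitting only the groups compared, with Benjamini-Hochberg adjustment over all genes tested and a threshold of 0.05. The methods of the study name edgeR's scaling and no test or covariate. The fitting script was tested on simulated data. Pooled PNs hold 5 slow-growing and 6 fast-growing tumors. Marker and gene list scores were means of log2(CPM + 1); correlations used these with group means removed. Likeness was searched among genes whose mean log2 CPM reached 3. Lengths and positions were taken from GENCODE M21, in which 22750 genes were matched by symbol, 913 by an older symbol and 399 not at all. Alternatives were DESeq2 size factors, no filter, DESeq2 1.42.0, limma-voom 3.58.1, 1 fit of all groups, muscle and fat score covariates, a removed trend of length and GC content (spline with 5 degrees of freedom each), a pseudocount of 0.1 and leaving out each library.

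All 9 members are given. From each list, called genes are named, at most 4 per comparison by lowest p, and Mki67, Cdkn1a, Mdm2, Ezh1 and Mtap in any case; some list genes, and the list of other nerve sheath tumor suppressor genes, are not reported here. The members, the 15 pathway lists and the 9 cell type lists were chosen with earlier results of these data known. Each library came from a different mouse by its label, and a preparation batch is not given in the sources used here.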

Additional observations from a re-analysis of the deposited data

Results flagged for a closer look

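Among 18 sets of 1 member in 1 PN group (groups of 5 or 6), 4 had a library far from the others by Dixon's gap test, which chance does in about 1 of 20 sets. In slow-growing PNs Cdkn2b of replicate 2 was at 16.8 CPM, far above the next library, and Rb1 of replicate 4 was at 87.6 CPM, far below the next. In fast-growing PNs Ezh2 and Atrx of replicate 4 were at 43.5 CPM and 525 CPM, both far above the next; this is the library whose neuron markers summed to 50.1 CPM. The cause was not tested.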

How the results depend on the processing

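No paired analysis was possible because each library came from its own mouse and the labels give no number shared between groups. With all libraries kept, 209 of 238 values of single members kept their direction and side of the threshold, 7 lost a call, 9 gained one and 13 turned direction; with 1 library left out these counts were 330 of 353, 9, 4 and 10. The pseudocount changed no side of the threshold in 36 permutation tests. Cdkn2b in fast-growing PNs lost its call only with muscle and fat covariates.

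In all PNs, DESeq2, 1 fit of all groups and the removed length and GC trend each called 2 members (the last Cdkn2b and Suz12, not Eed), covariates 0, and leaving out libraries 0 to 2. In fast-growing PNs, 1 was called with no filter, 0 with covariates and 1 to 3 with a library left out; the trend called Cdkn2a, Cdkn2b and Rb1. In slow-growing PNs no library left out gave a call (0 to 0). Between growth rates DESeq2 called 2 and leaving out libraries 0 to 1.

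Over all genes, covariates left 473 calls in all PNs and 0 in each other comparison. In slow-growing PNs DESeq2 called 3539, 1 fit of all groups 3280 and the trend 1099. Between growth rates the counts were 130 with DESeq2 size factors, 1592 with DESeq2, 34 with limma-voom and 423 in 1 fit. With a library left out they ranged from 2061 to 4779 in all PNs, 599 to 2454 in slow-growing PNs, 3342 to 5247 in fast-growing PNs and 2 to 1194 between growth rates.

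With covariates the log2 fold change turned to -1.51 for Cdkn2a, -0.69 for Cdkn2b, -0.13 for Trp53 and -0.18 for Atrx in all PNs, to 0.10 for Cdkn2c, 0.16 for Eed and 0.11 for Rb1 in slow-growing PNs, to -2.16 for Cdkn2a, 0.24 for Cdkn2c, 0.65 for Suz12 and 1.41 for Ezh2 in fast-growing PNs, and to -0.016 for Suz12 between growth rates. The trend turned Atrx in slow-growing PNs to -0.18. With a library left out, values that changed sign ran from -0.054 to 0.83 (Cdkn2b), -0.10 to 0.26 (Trp53) and -0.030 to 0.20 (Atrx) in slow-growing PNs, from -0.76 to 0.021 (Cdkn2c) and -0.57 to 0.060 (Ezh2) in fast-growing PNs, and from -0.028 to 0.12 (Suz12) and -0.02 to 0.18 (Eed) between growth rates. The cause was not tested. Muscle scores were 8.31 to 10.27 in controls and 2.98 to 7.56 in fast-growing PNs, and fat scores 7.69 to 8.03 and 1.23 to 3.65, so that these scores and the groups cannot be told apart there. The 3 controls and the depth of 9596773 to 17594164 counts limit Cdkn2a, which had at most 21 counts.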

Other observations

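Of 7 senescence-associated genes tested of 9 listed, Glb1, the lysosomal galactosidase read out in senescence stains, rose in all PNs (log2 fold change 0.50, SE 0.17, edgeR adjusted p = 0.0373) and in fast-growing PNs (0.58, SE 0.16, edgeR adjusted p = 0.0228). It was at 14.9 to 17.7 CPM in controls, 17.7 to 23.3 CPM in slow-growing PNs and 21.1 to 30.6 CPM in fast-growing PNs. Igfbp3, a secreted binding protein of insulin-like growth factors, rose in fast-growing PNs (1.504, SE 0.49, edgeR adjusted p = 0.0428), at 32.7 to 110 CPM against 10.6 to 33.7 CPM. The matrix protease Mmp3 was lower in all PNs (-2.85, SE 0.82) and in slow-growing PNs (-3.17, SE 0.44), and the first call was lost without control replicate 2 or 3. Of all genes, 26.3% were called in all PNs and 31.4% in fast-growing PNs, so the shares of this list were near those of all genes. The list median was -0.84 in fast-growing PNs, beside 0.02 over all genes tested. The call of Glb1 in all PNs was lost in 8 of the 14 fits that left out 1 library and with DESeq2's size factors, and the Igfbp3 call in 6 of 9; the direction of Igfbp3 turned with muscle and fat covariates.

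Among the cell type lists in all PNs, 5 of 10 Schwann cell and satellite glia markers were called higher and 0 of 10 neuron markers were called by edgeR, none with an unadjusted p under 0.05. Called lower were 8 of 15 skeletal muscle, 4 of 13 fat, 7 of 10 granulocyte, 2 of 10 lymphocyte, 3 of 8 endothelial and 1 of 8 fibroblast markers, where 12.9% of all genes were called higher and 13.4% lower. Most of these lower calls were lost without control replicate 3, which left 0 skeletal muscle, 2 fat, 0 granulocyte, 1 lymphocyte, 1 endothelial and 0 fibroblast markers by edgeR. Without control replicate 2 the counts were 1 skeletal muscle, 3 fat, 8 granulocyte, 0 lymphocyte, 2 endothelial and 0 fibroblast markers. The Schwann cell and satellite glia count was 4 without control replicate 2 and 4 without control replicate 3. Of 9 macrophage markers Cx3cr1 was called higher, in 4 of the 14 fits that left out 1 library; that call was lost with DESeq2's size factors and with the length and GC trend removed, and its direction turned with muscle and fat covariates. In fast-growing PNs 6 of 8 fibroblast markers were called higher and 1 lower, where 14.8% of all genes were called higher and 16.7% lower. These fibroblast counts were 4 and 0 without control replicate 2 and 0 and 0 with muscle and fat covariates. Also called lower in fast-growing PNs were 13 of 15 skeletal muscle and 13 of 13 fat markers. Each of these muscle and fat calls held in 8 or 9 of the 9 fits that left out 1 library. Those lost were lost without control replicate 3.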
